A study of Mus musculus with 78 samples.

Results

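Platelets carry RNA from the megakaryocytes that shed them, and the lung is a tissue with a large blood volume in which megakaryocytes also reside. Gp9, Gp5, Itga2b, Gp6, Treml1, Pf4, Ppbp and Alox12 are 8 genes used here as platelet and megakaryocyte transcripts, and a probe set annotated with the single symbol of the gene was found for 7 of them. Gp6, the platelet receptor for collagen, was not analysed here. Each of the 7 had 1 such probe set, out of 18820 genes with a probe set of their own among 35556 probe sets. The members were chosen by the 12 h difference between sleep deprivation and sleep, which an earlier look at these data had shown for Gp9 and Alox12, and by their known place in platelets. The levels of the 12 h groups are therefore given as a description without a test, and tests of levels are confined to the other hours. A test of the spread among mice also took in the SS mice at 12 h.

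The arrays measured whole lung RNA of young adult male C57BL/6J mice (C57BL/6 in the labels), 1 array per mouse and 78 mice in all, which had been fed only in the dark before the experiment. Sleep-deprived mice (SD) were kept awake by gentle handling from lights on and killed after 3, 6, 9 or 12 h (n = 9, 9, 9 and 8). Mice allowed spontaneous sleep (SS) were killed at the same hours (n = 9, 7, 9 and 9), and baseline mice were killed at lights on (n = 9). Values are log2 intensities, on which a difference of 1 is a doubling, and levels of different genes cannot be compared because each probe set has its own brightness.

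Megakaryocytes release platelets that already hold their adhesion receptors on the surface and their chemokines in alpha granules. On exposed tissue, the glycoprotein Ib-V-IX complex catches von Willebrand factor, collagen receptors signal inward, and the integrin alphaIIb beta3 then binds fibrinogen so that platelets join one another. Granules release chemokines, and platelet lipoxygenase and cyclooxygenase turn arachidonic acid into signalling lipids. In whole lung RNA, fewer platelets or megakaryocytes and less of these RNAs per cell cannot be told apart.

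The promoters of megakaryocyte genes are known for binding GATA and ETS factors, and short stretches before the start of 4 members are shown because the members varied together among mice. They are from RefSeq (GRCm38.p6), 5′ to 3′ on the strand of the gene, and positions count backwards from the base before the start of transcription at -1. The start is that of 1 RefSeq transcript per gene, and for Gp9 it lies 1939 bases inside the gene, whose annotated extent begins earlier. In the stretches of Gp9 (chr6:87778002-87778061, plus strand, positions -68 to -9) and Gp5 (chr16:30310824-30310883, minus strand, positions -102 to -43), capitals mark GATAA on either strand (TTATC on the other).
Gp9: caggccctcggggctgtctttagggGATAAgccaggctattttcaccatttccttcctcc
Gp5: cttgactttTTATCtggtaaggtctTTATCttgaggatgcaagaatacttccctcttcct
In those of Itga2b (chr11:102469884-102469943, minus strand, positions -60 to -1) and Ppbp (chr5:90768443-90768502, plus strand, positions -75 to -16), capitals mark GGAAG, the core of ETS sites, on either strand (CTTCC on the other).
Itga2b: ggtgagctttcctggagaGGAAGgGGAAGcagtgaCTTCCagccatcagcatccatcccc
Ppbp: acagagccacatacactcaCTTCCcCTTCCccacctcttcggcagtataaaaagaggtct
Within 250 bases before the start, GATAA occurred for 3 of the 8 members (Gp9, Gp5 and Gp6) and for 23.02% of 27025 promoters of the same length. GGAAG occurred for 7 of the 8 members and for 63.6% of promoters, and TGANTCA, a core bound by the NF-E2 family, for 1 member (Ppbp) and for 6.87%. No match overlapped a match of another motif, and a match of letters is not a bound site. Ppbp and Pf4 lie next to each other on chromosome 5, 2371 bases apart.

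Before the results, a limit of the labels concerns 16 arrays. The labels give each array a number, and array 81 stands in the deposited order where array 9 would be. When the deposited order of conditions was written along the array numbers, with no place for 9 and with places for 37 and 42, 15 arrays received the condition of a neighbouring group in place of their own. With each array held out in turn, and with 200 probe sets that excluded the members, all 15 lay nearest to the group given by their number, and 59 of the other 62 arrays lay nearest to the group on their label. Array 81, labelled SD 12 h, lay nearest to SS 6 h. Labels were used as deposited. Values without these 16 arrays are given for the members between SD and SS mice at 12 h and for some other results. For the members' tests, the calls were refitted without these arrays. The correlations within groups, the order of the group means, the splits by run and the tests of other platelet genes were not repeated without all 16. The 16 arrays include 2 each of SD 12 h, SS 12 h and baseline. Array numbers were also divided here into 4 runs of consecutive numbers by the order of their conditions, as the labels name no batch. Array 81 was counted in run 1 by its place in the deposited order. Runs 1 and 2 hold the 9 h and 12 h mice, run 3 the baseline mice, and runs 3 and 4 the 3 h and 6 h mice, so that hour and run cannot be told apart across that divide.

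After 12 h, all 7 members were lower in SD mice than in SS mice, with differences of -0.61 to -0.20 and a median of -0.38, beside a median of -0.01 over all 18820 genes. In SS mice at 12 h all 7 had their highest mean of the 9 groups. Against baseline, the differences were 0.21 to 0.42 for SS mice (7 of 7 above baseline) and -0.21 to 0.16 for SD mice (5 of 7 below). The comparison took part in the choice of the members, so these values have no p-value.

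**Figure D1:**
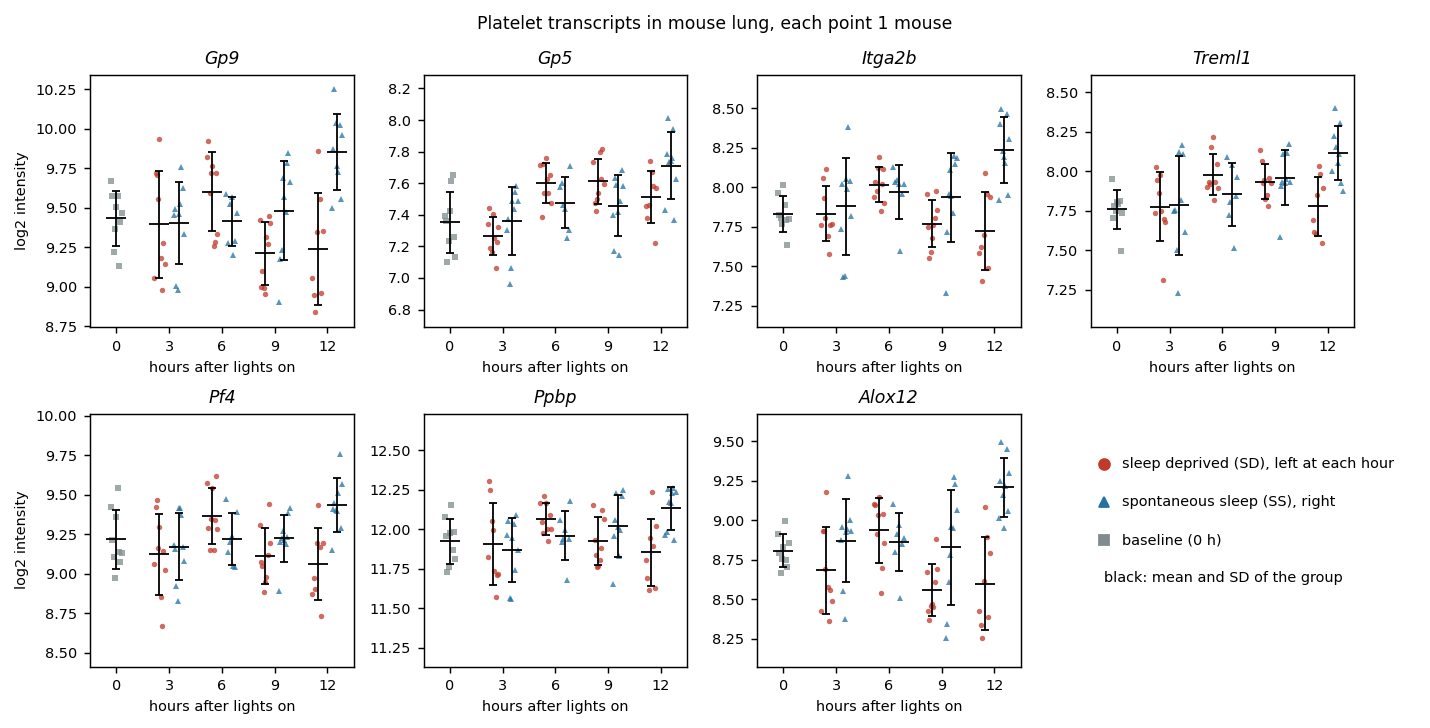
Log2 intensity of the 7 measured members (vertical axes, all of the same span) by hours after lights on, 1 point per mouse, with the mean and standard deviation of each group in black and SD mice drawn left of SS mice. In every panel the SS mice at 12 h have the highest mean, and their values overlap those of SD mice at 12 h.

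The receptors of the glycoprotein Ib-V-IX complex differed in size of response. Gp9, the smallest subunit of that complex, was 8.84 at the lowest, 9.20 at the median and 9.86 at the highest in SD mice at 12 h, against 9.50, 9.87 and 10.25 in SS mice. The ranges overlapped, with 6 of 8 SD mice below every SS mouse and 5 of 9 SS mice above every SD mouse. The difference was -0.61 (SE 0.13), or 0.654 times the SS level, and larger than the standard deviation among mice of either group (0.35 in SD mice and 0.24 in SS mice). Gp5, the subunit of the same complex that thrombin cleaves, was 7.22, 7.51 and 7.74 in SD mice, against 7.37, 7.74 and 8.01 in SS mice. Here the groups overlapped widely, with 1 of 8 SD mice below every SS mouse. The difference of -0.20 (SE 0.08) lay between the standard deviations of the groups (0.17 in SD mice and 0.21 in SS mice). Baseline mice had 9.13, 9.47 and 9.67 for Gp9 and 7.10, 7.36 and 7.65 for Gp5.

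Itga2b, the alphaIIb chain of the fibrinogen receptor, was 7.41, 7.66 and 8.09 in SD mice at 12 h (lowest, median and highest), against 7.92, 8.23 and 8.50 in SS mice and 7.63, 7.81 and 8.01 at baseline. Of the 9 SS mice, 7 were above every SD mouse, and the difference of -0.51 (SE 0.10) was 0.701 times the SS level. Treml1, which encodes a receptor stored in alpha granules and exposed on activation, was 7.55, 7.77 and 8.03 in SD mice, against 7.88, 8.11 and 8.40 in SS mice and 7.49, 7.78 and 7.95 at baseline. For Treml1 the SD mice lay close to baseline (0.02 above, SE 0.09) and the SS mice 0.36 above it (SE 0.09), which left a difference of -0.34 (SE 0.09) between SD and SS.

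Among the granule chemokines, Pf4 (platelet factor 4, which binds heparin) was 8.73, 9.07 and 9.43 in SD mice at 12 h, against 9.15, 9.41 and 9.76 in SS mice and 8.97, 9.14 and 9.54 at baseline. Ppbp, the precursor of a neutrophil-attracting chemokine, was 11.62, 11.85 and 12.24 in SD mice, against 11.93, 12.17 and 12.26 in SS mice and 11.73, 11.96 and 12.15 at baseline. Both chemokine genes overlapped between the states, with 4 of 8 and 5 of 8 SD mice below every SS mouse. Their differences were -0.38 (SE 0.09) for Pf4 and -0.28 (SE 0.09) for Ppbp.

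Alox12, the platelet 12-lipoxygenase that oxidises arachidonic acid, was 8.26, 8.52 and 9.08 in SD mice at 12 h, against 8.95, 9.21 and 9.49 in SS mice and 8.66, 8.79 and 9.00 at baseline. Only 1 of 8 SD mice reached into the range of the SS mice. The difference was -0.61 (SE 0.12), or 0.655 times the SS level. A lipoxygenase list of 7 other genes was followed, among them Alox5ap, which encodes an activating protein and not a lipoxygenase. Of these 7, 4 were lower in SD mice and their median difference was -0.05 (3 of 7 lower and a median of 0.11 without the 16 arrays). The difference was -0.18 for Alox5 (leukotriene synthesis) and 1.03 for Alox12e, an epidermal enzyme. Alox12e had a low intensity, with a mean of 4.90 over all arrays, where the median of probe set means was 6.67.

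Ordered by their 12 h difference among all 18820 genes, Gp9 was the 12th from the lowest, Alox12 the 15th, Itga2b the 29th, Pf4 the 87th, Treml1 the 114th, Ppbp the 199th and Gp5 the 490th. As this difference took part in the choice of the members, the order and the values below describe it and are no test of it. The direction held for all 7 members in each run of array numbers. In run 1 (4 SD and 5 SS mice) the differences were -0.84 to -0.27, with -0.84 for Gp9 and -0.72 for Alox12. These 4 SD mice include array 81, without which the differences were -0.94 (Gp9) to -0.31 (Gp5), a comparison added after seeing the data. In run 2 (4 SD and 4 SS mice) they were -0.51 to -0.12, with -0.38 for Gp9 and -0.51 for Alox12. Without the 16 arrays (6 SD and 7 SS mice left) they were larger for each member, -0.72 for Gp9, -0.67 for Alox12, -0.60 for Itga2b, -0.45 for Pf4, -0.39 for Treml1, -0.33 for Ppbp and -0.28 for Gp5.

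As the mean of the 7 members per mouse, SD mice at 12 h ranged from 8.57 to 9.20 (median 8.81), against 9.00 to 9.48 (median 9.27) in SS mice and 8.77 to 9.08 (median 8.88) at baseline. Array 27, an SD mouse with the lowest such mean, also had a mean of 9.78 over 6 T cell genes, where the other SD mice at 12 h had 6.17 to 6.90. Without array 27 the differences between SD and SS were -0.57 for Gp9, -0.58 for Alox12 and -0.16 for Gp5.

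Transcripts of some other blood cells were also lower in SD mice at 12 h, as a description without a test, and their ranges overlapped. Those of T cells (1 of 6 lower, median 0.04), mast cells (3 of 6, -0.03) and monocytes (2 of 3, -0.14) differed less. The T cell median includes array 27. The 6 erythroid genes measured were all lower in SD mice, with a mean level of 6.14 to 6.75 in SD mice, against 6.22 to 7.004 in SS mice, and a median difference of -0.26 (5 of 6 lower without the 16 arrays). The smallest of these differences was -0.03. Rhag, Tspo2, Epb42 and Hemgn had low intensities, with means of 4.50 to 5.64 over all arrays, where the median of probe set means was 6.67. All 6 B cell genes were lower (median -0.35, mean level 7.21 to 8.51 in SD mice and 7.66 to 8.54 in SS mice), as were 7 of 9 neutrophil genes (median -0.45, 7.01 to 7.73 in SD mice and 7.44 to 7.91 in SS mice). The 7 endothelial genes (11.25 to 11.42 in SD mice and 11.29 to 11.41 in SS mice) and the 7 lung epithelial genes (11.97 to 12.07 in SD mice and 11.92 to 12.08 in SS mice) had median differences of -0.03 and -0.01. With the mean of the erythroid genes as a covariate, the members' differences were -0.55 (Gp9) to -0.13 (Gp5). The part of the B cell and neutrophil genes in the result was not tested.

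**Figure D2:**
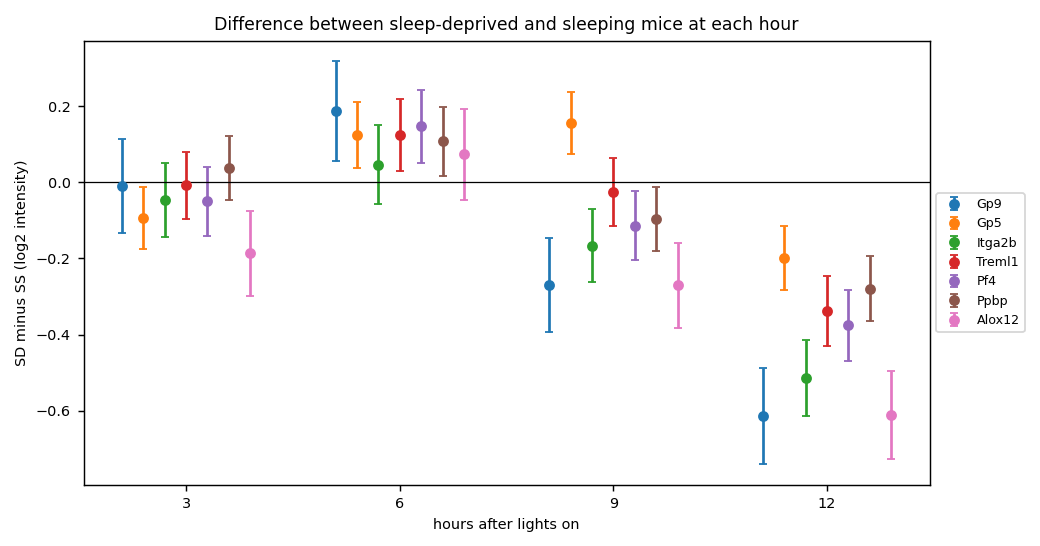
Difference between SD and SS mice in log2 intensity (vertical axis, points with SE bars) for each member at 3, 6, 9 and 12 h after lights on (horizontal axis). All 7 points lie above 0 at 6 h and below 0 at 12 h, and at 9 h Gp5 alone lies above 0.

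At the hours that took no part in choosing the members, none of the 7 passed an adjusted p of 0.01 in limma. At 3 h, 0 of 7 were called between SD and SS mice, beside 6.11% of all probe sets, and the differences were -0.19 (Alox12) to 0.04 (Ppbp), with 0 of 7 at an unadjusted p under 0.05. At 6 h, 0 of 7 were called, beside 0.0591% of all probe sets. All 7 were higher in SD mice at that hour, by 0.05 (Itga2b) to 0.19 (Gp9), again with 0 of 7 at an unadjusted p under 0.05. At 9 h, 0 of 7 were called, beside 2.56%. At that hour 2 of 7 had an unadjusted p under 0.05, beside 8625 of 35556 probe sets.

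Those 2 were Alox12 and Gp9. Alox12 at 9 h was 8.37, 8.47 and 8.88 in SD mice (lowest, median and highest), against 8.25, 8.95 and 9.27 in SS mice, and Gp9 was 8.96, 9.27 and 9.45 in SD mice, against 8.91, 9.57 and 9.84 in SS mice. For both genes the range of the SD mice lay inside the wider range of the SS mice, and all 9 SD mice were below the SS median. The differences were -0.27 for each (SE 0.11 for Alox12 and 0.12 for Gp9), with adjusted p = 0.116 and 0.157 from limma. Without the 16 arrays they were -0.32 and -0.37 (adjusted p = 0.0668 and 0.0576 from limma). Gp5 went the other way at 9 h, with 7.43, 7.60 and 7.82 in SD mice, against 7.15, 7.49 and 7.69 in SS mice, 0.16 higher in SD mice (SE 0.08, limma adjusted p = 0.228) and 0.08 higher without the 16 arrays.

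The 3 h result depended on the run of array numbers. In run 3 (5 SD and 5 SS mice) all 7 members were higher in SD mice, by 0.07 to 0.31. In run 4 (4 SD and 4 SS mice) all 7 were lower, with differences of -0.54 (Alox12) to -0.25 (Ppbp). For Gp9 these values were 0.31 (SE 0.19) in run 3 and -0.41 (SE 0.11) in run 4. At 6 h all 7 members were higher in SD mice in run 3 (0.09 to 0.34) and 3 of 7 were lower in run 4 (-0.09 to 0.13, with 2 SS mice). At 9 h, 5 of 7 were lower in run 1 and 6 of 7 in run 2.

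Over 3, 6 and 9 h together (27 SD and 25 SS mice), 0 of 7 members were called in limma, beside 5.19% of probe sets, and 0 had an unadjusted p under 0.05. The differences ranged from -0.13 (Alox12, SE 0.07) to 0.07 (Gp5). Alox12 was called when the block held 5 runs (-0.30, limma adjusted p = 0.00482) and not when it held 4 runs (-0.13, adjusted p = 0.191). The block of 5 divides run 3 so that its SD mice and its SS mice fall in separate parts. Run 3 then adds nothing to the difference. Within run 3, Alox12 was higher in SD mice, by 0.10 at 3 h and 0.20 at 6 h. A change of the SD minus SS difference over 3, 6 and 9 h was called for 0 of 7 members (0.0197% of probe sets), and 1, Gp9, had an unadjusted p under 0.05 (adjusted p = 0.298 from limma's F test). Of all 35556 probe sets, 5652 had such an unadjusted p.

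Against the shared baseline group, SS mice had 0 of 7 members called at 3 h (0.0112% of probe sets), 0 at 6 h (0.228%) and 0 at 9 h (2.55%) in limma. The differences were -0.06 to 0.06 at 3 h, -0.02 to 0.14 at 6 h and 0.01 to 0.20 at 9 h, and 1 of these, Treml1 at 9 h (0.20, SE 0.09, adjusted p = 0.175), had an unadjusted p under 0.05. At 9 h, 7208 of 35556 probe sets had such an unadjusted p. SD mice had 0 of 7 called at 3 h (1.27%), 0 at 6 h (0.231%) and 0 at 9 h (12.9%). Their differences from baseline were -0.12 to 0.02 at 3 h, 0.13 to 0.25 at 6 h, when all 7 were above baseline, and -0.25 to 0.26 at 9 h. At an unadjusted p under 0.05, 0, 2 and 2 members were found at the 3 hours, beside 5720, 3128 and 12921 of 35556 probe sets.

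Gp5 came nearest to the threshold. In SD mice at 9 h it was 7.43, 7.60 and 7.82 (lowest, median and highest), against 7.10, 7.36 and 7.65 at baseline, and at 6 h it was 7.39, 7.63 and 7.76. The groups overlapped at both hours. The difference at 9 h was 0.26 (SE 0.08, adjusted p = 0.0144 from limma) and that at 6 h was 0.25 (SE 0.08, adjusted p = 0.190). The 9 h difference passed the threshold without baseline array 53 (adjusted p = 0.00736) or 54 (0.00605), and was 0.21 without the 16 arrays (adjusted p = 0.0690). Alox12 in the same SD mice differed from baseline by -0.25 (SE 0.11, adjusted p = 0.0945), and Treml1 at 6 h was 0.22 higher (SE 0.09, adjusted p = 0.370). Baseline lies in run 3 and the 9 h mice in runs 1 and 2, so hour and run cannot be told apart in the 9 h values.

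Along baseline and 3, 6 and 9 h of sleep, the slope was positive for all 7 members (0.002 to 0.023 log2 units per hour) and 0 of 7 were called in limma, beside 0.861% of probe sets. Treml1 had the steepest slope (0.023, SE 0.010, adjusted p = 0.243) and was the 1 member with an unadjusted p under 0.05, beside 6171 of 35556 probe sets. The spread among mice differed between baseline and the 4 sleep groups for 0 of 7 members by Bartlett's test with Benjamini-Hochberg adjustment, beside 4.01% of probe sets. Alox12 was the 1 member with an unadjusted p under 0.05 (adjusted p = 0.120), beside 8896 of 35556 probe sets. Its standard deviation was 0.26, 0.18, 0.36 and 0.19 after 3, 6, 9 and 12 h of sleep and 0.10 at baseline.

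The order of the 9 group means was alike among the members at its top and less so below. The 12 h difference took part in their choice, so the places of the 12 h groups are no test. SD 9 h was in place 9 for Gp9 and Alox12, 8 for Itga2b and Pf4, 5 for Ppbp, 4 for Treml1 and 2 for Gp5. SS 12 h came first for 7 of 7 and SD 6 h second for 6 of 7 (SD 9 h for Gp5), and the lowest mean was that of SD 9 h or SD 12 h for 5 of 7. For Gp9 the order opened with 9.85 ± 0.24 in SS 12 h (standard deviation, n = 9) and 9.60 ± 0.25 in SD 6 h (n = 9), which lay about 1 standard deviation apart. It closed with 9.24 ± 0.35 in SD 12 h (n = 8) and 9.21 ± 0.20 in SD 9 h (n = 9), which did not differ beyond their spread, and the 5 means between, 9.39 to 9.48, lay within the spread of one another. Gp5 and Treml1 had other lowest groups, SD 3 h for Gp5 (7.27) and baseline for Treml1 (7.76).

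Within groups the members varied together. Taking each mouse's deviation from the mean of its group over 78 arrays, the 21 pairs of members had Pearson correlations of 0.54 to 0.91 with a median of 0.72. Gp9 and Alox12, which lie on different chromosomes, had the highest (0.91), and Gp5 had the lowest median with the others (0.59), where Itga2b had the highest (0.79). These correlations describe arrays that share 1 normalisation, and no test was made of them. The 10 genes outside the members that were most like their mean standardised deviation were Tubb1 (r = 0.92), Mpig6b (0.87), Mfsd2b (0.87), Nrgn (0.87), Slc2a3 (0.85), Slc6a4 (0.79), Clec1b (0.77), Itgb3 (0.77), P2ry12 (0.76) and 1810058I24Rik (0.75), out of 18813 genes with a median of 0.01 and 95% between -0.31 and 0.36.

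Of these 10, 6 belong to a list of other platelet genes. Tubb1 encodes the beta1-tubulin of the platelet's marginal band, Mpig6b an inhibitory receptor of megakaryocytes, Clec1b the receptor for podoplanin, Itgb3 the partner chain of Itga2b, P2ry12 an ADP receptor and Nrgn a calmodulin-binding protein. Of the remaining 4, Slc6a4 is the serotonin transporter with which platelets take up serotonin, Slc2a3 a glucose transporter and Mfsd2b an exporter of sphingosine 1-phosphate. The mean deviation of the 30 measured genes of the list had r = 0.88 with that of the members, against 0.43 for B cell, 0.38 for neutrophil, 0.25 for erythroid, 0.06 for endothelial and -0.12 for lung epithelial genes. Not all genes of the list followed the members. Vwf, also of the endothelium (r = -0.02), and Thbs1 (0.28) lay within the central range of other genes, -0.31 to 0.36. So did Gfi1b (0.06), Zfpm1 (0.05), Rasgrp2 (0.05), Tbxa2r (0.04) and F2rl3 (-0.07), among others of the list. F2rl2 (0.73) and Plek (0.68) were among those above that range. Whether expression by lung tissue accounts for the low values was not tested.

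**Figure D3:**
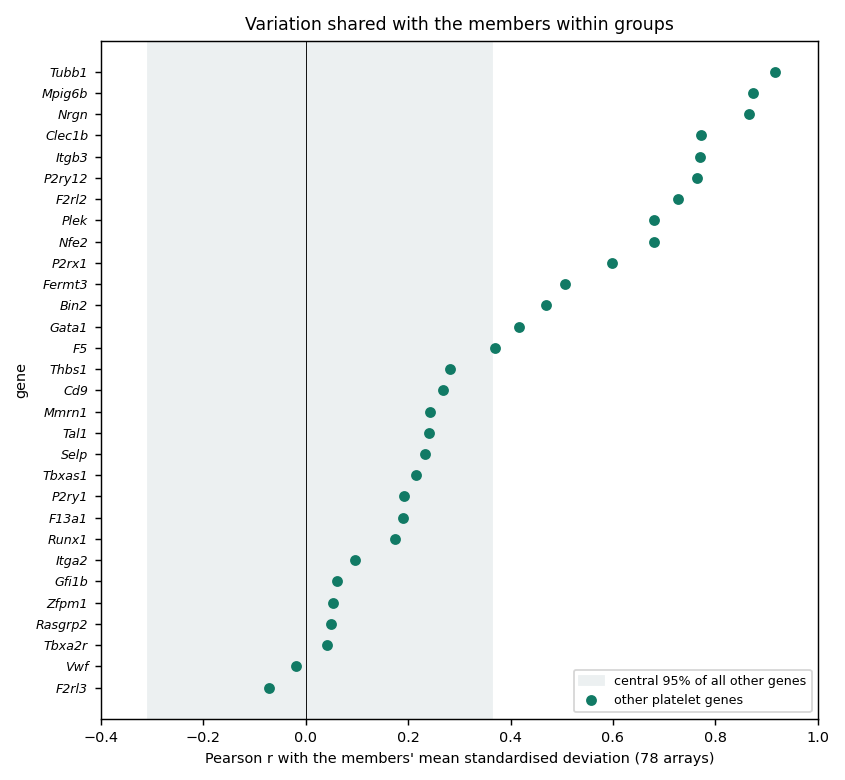
Pearson correlation, over 78 arrays, between the within-group deviation of each of 30 other platelet genes (vertical axis) and the mean standardised deviation of the 7 members (horizontal axis), with the central 95% of 18813 genes shaded. Tubb1 has the highest value, 0.92, and F2rl3 the lowest, -0.07.

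At 12 h, 25 of the 30 other platelet genes were lower in SD mice than in SS mice, with a median of -0.17, where 10103 of all 18820 genes were lower. The list was chosen with earlier results of these data known and varied with the members within groups. The count is therefore a description and no test of the members' difference. The lowest were Mpig6b (-0.67, SE 0.13), Nrgn (-0.52, SE 0.10) and F2rl2, a thrombin receptor of mouse platelets (-0.51, SE 0.12). Mpig6b averaged 6.87 in SD mice at 12 h, against 7.54 in SS mice and 7.24 at baseline. Nrgn averaged 8.58 in SD mice, against 9.10 in SS mice and 8.64 at baseline. Mpig6b was among the genes known to differ at 12 h when the members were named, and the 2 genes differed in their place against baseline, Nrgn in SD mice lying 0.06 below it and Mpig6b 0.38 below. Without the 16 arrays 24 of the 30 were lower.

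**Figure D4:**
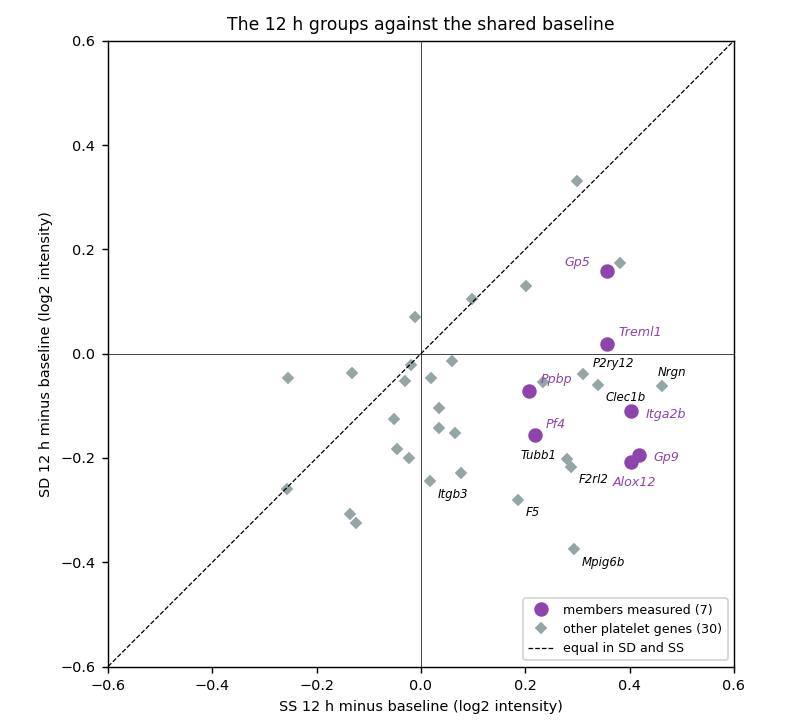
Difference from baseline in log2 intensity of SD mice at 12 h (vertical axis) and of SS mice at 12 h (horizontal axis) for the 7 members and 30 other platelet genes, with a dashed line where both states would be equal. All 7 members lie below the line and right of 0, and both axes share the same baseline mice.

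At the other hours, other platelet genes were called by limma in both directions. Between SD and SS mice at 3 h, 2 of 30 were lower (2.35% of probe sets were), Tbxa2r, the thromboxane receptor (-0.40, adjusted p = 0.00114), and F13a1, the A chain of factor XIII (-0.40, adjusted p = 0.000253). At 6 h, 0 of 30 were called, with 3 at an unadjusted p under 0.05, beside 3822 of 35556 probe sets. The widest differences at 6 h were -0.57 for F5, coagulation factor V, 0.26 for Rasgrp2 and 0.19 for Mmrn1, a granule protein that binds factor V. At 9 h, 2 of 30 were lower (1.41% of probe sets), Bin2 (-0.45, adjusted p = 0.00176) and Fermt3, the kindlin of blood cells (-0.36, adjusted p = 0.00955). Over 3 to 9 h, 3 of 30 were lower (2.6% of probe sets), Tbxa2r (-0.30), Fermt3 (-0.25) and Bin2 (-0.25), and 2 were higher (2.6%), Rasgrp2 (0.21), whose product activates Rap1 upstream of the integrin, and P2ry1 (0.18), an ADP receptor.

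Against baseline, SD mice had 1 of 30 lower at 3 h (0.56% of probe sets), F13a1 (-0.39, adjusted p = 0.00106 from limma). At 9 h, 5 of 30 were lower (6.51% of probe sets) and 0 higher (6.37%), namely Mpig6b (-0.42, adjusted p = 0.00824), F2rl2 (-0.39), Bin2 (-0.37), Fermt3 (-0.35) and Zfpm1 (-0.33), the cofactor of Gata1. Mpig6b averaged 6.82 in SD mice at 9 h, against 7.24 at baseline. SD mice at 6 h and SS mice at 3, 6 and 9 h had 0 of 30 called, with 7, 3, 4 and 5 at an unadjusted p under 0.05 in limma. Of 35556 probe sets, 3128, 3708, 4511 and 7208 had such an unadjusted p. The widest differences from baseline were 0.30 for Selp (P-selectin) in SD mice at 6 h, and in SS mice 0.21 for Selp at 3 h, 0.64 for F5 at 6 h and -0.25 for Zfpm1 at 9 h. A changing SD minus SS difference and a slope over hours of sleep were called for 0 of 30, with 7 and 5 at an unadjusted p under 0.05, beside 5652 and 6171 of 35556 probe sets. The spread over baseline and sleep differed for 1 of 30, F5 (adjusted p = 6.39e-05, Bartlett's test), beside 4.01% of probe sets. Fermt3, Bin2 and F13a1 are also expressed by white blood cells. A list of 7 liver genes had a mean level of 5.66 to 12.65 in SS mice at 6 h. That level was 6.24 to 10.36 in SD mice at 6 h and 5.80 to 9.97 at baseline. The part of liver transcripts in the F5 values was not tested.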

How the data were processed

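Affymetrix Mouse Gene 1.0 ST arrays of lung were read and normalised by the authors with RMA (R/oligo, all lung arrays together), and the deposited values are log2 intensities (RMA is also named in the submitters' processing notes). The deposited numbers lack a decimal point, which was restored after the second digit where the first digit is 1 and after the first digit otherwise, giving 2.27 to 13.85 with array medians of 6.45 to 6.78. Precision is limited by the number of mice in each group, as arrays give no counts. Every array had a group in the labels.

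The members and gene lists were chosen with earlier results of these data known. Probe sets with 1 gene symbol (21218, with 1881 of several and 12457 of none) gave gene values, 1 probe set per gene by highest mean over 78 arrays. limma 3.58.1 in R 4.3.3 fitted 9 group means to all 35556 probe sets, with separate fits of state over 3 to 9 h and of a slope over hours of sleep. p-values were adjusted by Benjamini-Hochberg and called at 0.01. Bartlett's test, the study's variance test, covered baseline and 4 sleep groups. Scripts were tested on simulated data. Python 3.11.15, numpy 2.4.6 and pandas 2.3.3 gave correlations and motif counts.

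Named genes were the members, other platelet genes called in a comparison (or the 3 with the largest differences), and the 10 genes most correlated with the members within groups. Lists of platelet (30 of 34 measured), erythroid (6 of 9), neutrophil (9 of 9), monocyte (3 of 4), B cell (6 of 7), T cell (6 of 7), mast cell (6 of 6), endothelial (7 of 7), liver (7 of 7), lung epithelial (7 of 7) and lipoxygenase genes (7 of 7) were followed. Between SD and SS mice at 12 h the median differences were -0.14 for monocyte, 0.04 for T cell, -0.03 for mast cell and 0.76 for liver genes (0.20 without the 16 arrays). The T cell value is raised by array 27, with a mean of 9.78 over the T cell genes. The other SD mice at 12 h had 6.17 to 6.90, and SS mice at 12 h had 6.52 to 7.00. Alternatives were blocks of 4 and 5 runs of array numbers, fits within runs, without the 16 arrays, array weights, a mean log2 intensity of at least 6, trended and robust variances, liver and erythroid covariates, hour as a factor, the 12 h mice kept, the Brown-Forsythe test and leaving out each array.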

Additional observations from a re-analysis of the deposited data

Results flagged for a closer look

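In 4 of 63 combinations of a member and a group, the lowest mouse was far from the others of its group (Dixon's criterion, which chance meets in about 1 of 20 groups). In SS mice at 9 h, array 10 had a Pf4 level of 8.89, where the next lowest mouse had 9.19, and a Treml1 level of 7.58, where the next had 7.91. Itga2b was 7.60 in array 66 of SS mice at 6 h, where the next lowest had 7.95. Arrays 10 and 66 are among the 16 arrays described above. Treml1 was 7.31 in array 68 of SD mice at 3 h, where the next lowest had 7.68.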

How the results depend on the processing

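The number of members called stayed at 0 in 10 of 13 comparisons under each alternative that could be fitted. In SD mice at 9 h against baseline, 1 member (Gp5) was called with probe sets of a mean log2 intensity of at least 6 (0.26, adjusted p = 0.00938 from limma) and 1 (Gp5) with the erythroid covariate (0.28, adjusted p = 0.00563), and leaving out each array gave 0 to 1. Between SD and SS mice over 3 to 9 h, 1 member (Alox12) was called with 5 runs as a block, a fit in which run 3 adds nothing to the difference. With the 12 h mice kept, 1 member passed in that comparison and 2 in the slope over hours of sleep, which is no test of the members, since the 12 h values chose them. At 12 h, SD minus SS, the difference that took part in that choice, kept its sign for all 7 members in every alternative. It was -0.70 to -0.56 for Gp9 and -0.24 to -0.16 for Gp5 when each array was left out. Treml1 in SD mice at 12 h against baseline was -0.017 to 0.052 when each array was left out. Over all 98 member and comparison pairs, 37 changed sign under some alternative, and the largest was Alox12 between SD and SS mice at 3 h (-0.19, and 0.10 within run 3). With a run block, 9 h and 12 h could not be fitted against baseline, and no member had a second probe set to try. No paired analysis was possible because the array numbers are not shared between groups. Groups of 7 to 9 mice and 1 normalisation limit the precision.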
